A study of Mus musculus with 12 samples.

Results

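The 10 genes described here, of the Notch pathway and of secretory cell fate, were measured in mouse colonic mucosa. They are the receptors Notch1 and Notch2, the ligands Dll1, Dll4 and Jag1, the DNA-binding partner Rbpj, the repressor genes Hes1 and Hes6, and the secretory regulators Atoh1 and Gfi1. They are a set given by symbol, chosen with earlier results of these data known, and are 10 of 38087 genes with an Ensembl identifier. Messenger RNA was sequenced from 12 libraries of colonic mucosa, 6 labelled wild type and 6 labelled Sgo1 -/+, in a study of how chromosome instability affects the colon. Sgo1 encodes shugoshin 1, which protects the cohesion of sister chromatids at the centromere. Azoxymethane, which causes tumours of the colon, had been given to all mice of both groups at 4 mg/kg, 2 times a week, from 8 to 12 weeks of age, and tissue was taken at 9 months. No untreated group was analysed here, and the labels do not say that each library came from a separate mouse. The p-values set the genotype difference against the spread between libraries, and may not hold between mice.

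Notch signalling decides between absorptive and secretory fates in the intestinal crypt. A Delta or Jagged ligand on one cell triggers cleavage of a Notch receptor on its neighbour, and the freed intracellular part binds Rbpj and switches on Hes1. Hes1 represses Atoh1, the master regulator of goblet, enteroendocrine and other secretory cells, so that cells with active Notch stay absorptive or undivided in fate. Cells that keep Atoh1 switch on Delta ligands, Hes6 and Gfi1 and hold their neighbours out of the secretory path, a process called lateral inhibition.

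The promoters of 3 genes are shown because Atoh1 is the gene that Hes1 represses, and because Dll1 and Hes6 had the highest correlation among the 10 pairs tested below. Sequences are the 250 bases before the start of transcription, from RefSeq on build GRCm38.p6, written 5′ to 3′ on the gene's strand; for Dll1 the outermost start in RefSeq was used. The Atoh1 sequence lies on the plus strand at chr6:64728875-64729124, Dll1 on the minus strand at chr17:15376933-15377182 and Hes6 on the minus strand at chr1:91414039-91414288. Capitals mark CACGCG on either strand in Atoh1, a sequence bound by repressors of the HES family, and CAGCTG in Dll1 and Hes6, a form of the E-box bound by activators of the Atoh1 kind. The Dll1 sequence also holds CACGCG, left in lower case.
Atoh1: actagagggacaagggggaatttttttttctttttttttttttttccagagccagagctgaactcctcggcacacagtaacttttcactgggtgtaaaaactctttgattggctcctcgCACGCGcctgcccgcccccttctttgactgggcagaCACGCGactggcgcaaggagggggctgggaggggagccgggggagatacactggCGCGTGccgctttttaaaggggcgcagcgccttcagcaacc
Dll1: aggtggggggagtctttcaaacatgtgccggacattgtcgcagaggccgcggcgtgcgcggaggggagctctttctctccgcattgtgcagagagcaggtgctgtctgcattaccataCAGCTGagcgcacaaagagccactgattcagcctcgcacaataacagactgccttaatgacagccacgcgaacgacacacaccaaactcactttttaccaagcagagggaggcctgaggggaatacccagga
Hes6: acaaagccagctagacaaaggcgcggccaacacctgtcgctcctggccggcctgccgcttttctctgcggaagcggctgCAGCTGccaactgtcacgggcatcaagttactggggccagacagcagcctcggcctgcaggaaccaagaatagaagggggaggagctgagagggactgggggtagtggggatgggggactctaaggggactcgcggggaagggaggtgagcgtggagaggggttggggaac
CACGCG stood 3 times in the Atoh1 sequence, beginning 131, 95 and 41 bases before the start. Of 32851 promoter windows of this length 7.62% held it at least 1 time and 0.225% held it 3 or more times. CAGCTG began 132 bases before the Dll1 start and 171 bases before the Hes6 start, and 13.0% of all windows held it. Motifs were searched on both strands in 13 windows of the 9 genes with an entry (all but Hes1), and were chosen with their matches known. CACGCG was in 5 member windows, of Atoh1, Dll1, Dll4, Jag1 and Notch2, and CAGCTG in 4, of Dll1, Hes6 and Jag1. The Rbpj motif TGGGAA was in 2 (both of Rbpj, 21.6% of all windows) and CACNAG in 4 (36.7%). GTGGGAA, which contains TGGGAA, and CACGTG were in 0 (5.42% and 6.02% of all windows), and TATAAA in 1 (12.4%). These matches describe letters only.

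The deposited tables held 5711553 to 10198304 counts per library. Sgo1, listed as Sgol1, ran from 1.49 to 6.80 CPM (counts scaled to a common library size) in wild type and from 1.84 to 2.77 CPM in Sgo1-/+, and did not pass the test between genotypes (log2 change -0.67 ± 0.31 SE, edgeR adjusted p = 0.517). It was at -0.35 without wild type replicate 2. Replicates 3 and 5 of wild type and replicate 3 of Sgo1-/+ stand apart from the rest. In these 3 libraries 40.63% to 44.0% of counts fell on 4 rows, Gm13340, AY036118, Gm13341 and Gm11410, against 14.32% to 26.42% in the other 9. Markers of epithelium were abundant, with 6 genes summing to 5460 to 7480 CPM in wild type and 6120 to 7190 CPM in Sgo1-/+. The 9 goblet markers summed to 10100 to 14300 CPM and 11500 to 16700 CPM, while 6 endothelial markers summed to 5.94 to 19.7 CPM and 7.13 to 14.5 CPM, with Cldn5 under 1 CPM in every library. Smooth muscle markers (6 genes) summed to 13.1 to 24.1 CPM in wild type and 14.6 to 31.5 CPM in Sgo1-/+. T and NK cell markers (6 genes) summed to 10.5 to 24.2 CPM and 8.52 to 17.6 CPM.

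Per kilobase of merged exons, Hes1 and Atoh1 were the most abundant of the 10 transcripts and the receptors the least, an order that holds for Notch2 but not for Notch1 on the length of the principal transcript. In wild type, Hes1 stood at 31.0 ± 5.23 CPM per kilobase, Atoh1 at 17.6 ± 4.53 and Hes6 at 10.1 ± 0.967 (SD, n = 6). Rbpj followed at 2.27 ± 0.142, Gfi1 at 1.59 ± 0.306 and Jag1 at 1.57 ± 0.356. Dll4 stood at 0.985 ± 0.20, Dll1 at 0.975 ± 0.36, Notch1 at 0.815 ± 0.257 and Notch2 at 0.25 ± 0.0851 CPM per kilobase. The ranges of neighbours in this order were apart only between Hes1 and Atoh1, between Hes6 and Rbpj and between Notch1 and Notch2. In Sgo1-/+ the first 3 places were the same, with Hes1 at 34.3 ± 11.7, Atoh1 at 22.9 ± 9.41 and Hes6 at 13.5 ± 2.10 CPM per kilobase (SD, n = 6), and only Hes6 and the next gene, Gfi1, had ranges apart. The order depends on the length used. The largest difference is for Rbpj, whose merged exons span 12750 bases and whose principal transcript spans 5440 bases. The Rbpj model used for length begins at 53466152 on chromosome 5, and the model in the files at 53555779. The merged exons of Rbpj may therefore include bases that were not counted. With the principal transcript, a length chosen after seeing the data, Rbpj stood at 5.33 ± 0.332 CPM per kilobase in wild type and kept rank 4 in wild type and had rank 4 in Sgo1-/+. On that length Notch1 stood at 1.22 ± 0.386 CPM per kilobase in wild type, above Dll1 at 1.15 ± 0.424 and Dll4 at 1.01 ± 0.206, and moved from rank 9 to 7 in wild type and from 9 to 8 in Sgo1-/+.

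Both receptor genes had higher means in Sgo1-/+ mucosa, and neither passed the test over all genes. Notch1 (ENSMUSG00000026923), on chromosome 2 at 26457903 to 26516663 in mm10, encodes the receptor most used by crypt epithelium. In wild type it ran from 6.28 CPM through a median of 11.6 to 17.3 CPM, and in Sgo1-/+ from 5.31 through 15.1 to 24.2 CPM. The groups overlapped, with 2 Sgo1-/+ libraries above every wild type library, and the lowest library of each group was replicate 3, which is rich in the 4 abundant rows. Between genotypes the log2 change was 0.40 ± 0.30 (SE; edgeR adjusted p = 0.687), and 0.24 without Sgo1-/+ replicate 6. In bulk tissue, fewer cells of a type and less RNA per cell cannot be told apart. Notch2 (ENSMUSG00000027878), the other receptor of the crypt, lies on chromosome 3 at 98013538 to 98150367. It ran from 1.51 through 2.65 to 3.83 CPM in wild type and from 3.27 through 3.86 to 6.40 CPM in Sgo1-/+, on a mean of 30.3 counts per library. Sgo1-/+ replicate 4 held the highest level, and 4 Sgo1-/+ libraries lay above every wild type library. The log2 change of Notch2 was 0.60 ± 0.26 (SE), with an edgeR adjusted p of 0.504 and an unadjusted p of 0.0373. Without Sgo1-/+ replicate 4 it was 0.44 (edgeR unadjusted p = 0.113).

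**Figure D1:**
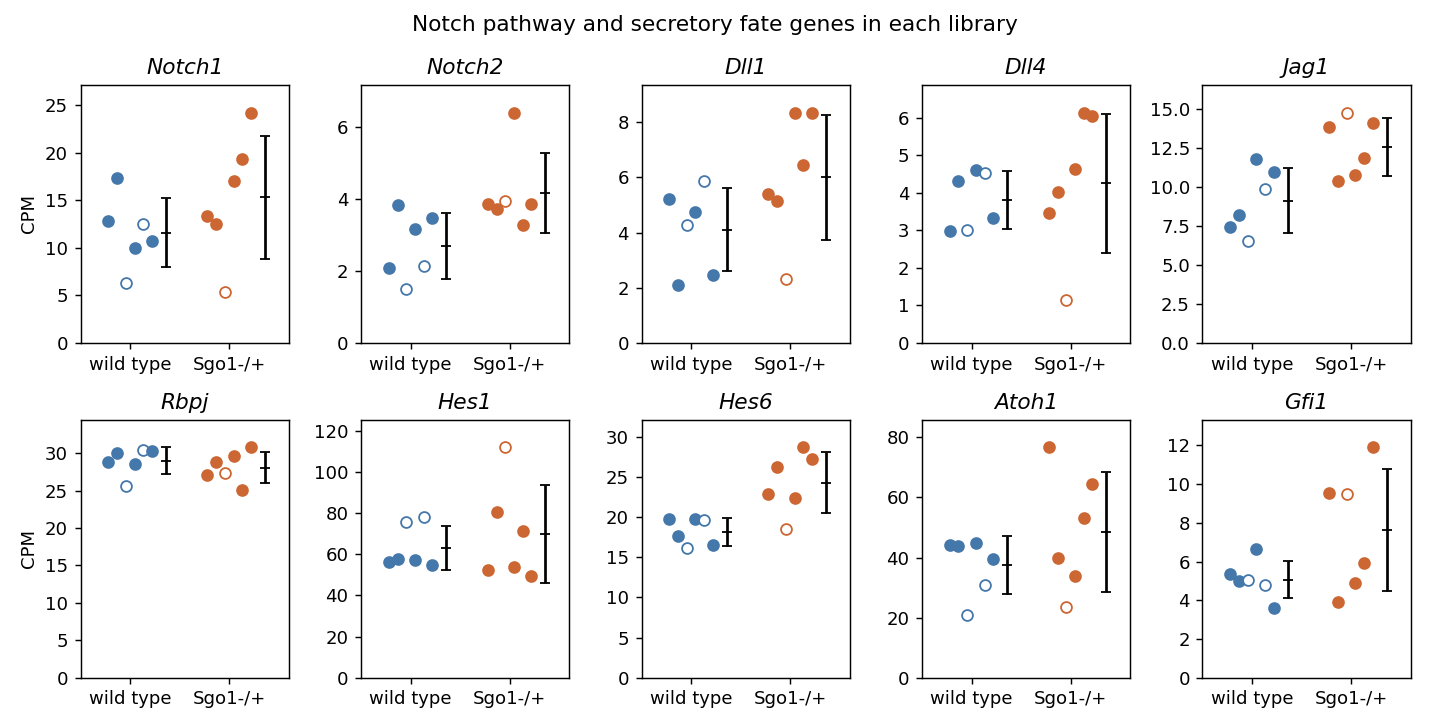
Level of the 10 genes in each library, in CPM, with wild type in blue and Sgo1-/+ in orange. Points of a group stand in the order of the replicate numbers, open points are the 3 libraries with over 35% of counts in 4 abundant rows, and bars are the mean ± SD of 6 libraries. Hes6 and Jag1 sit higher in Sgo1-/+ with few libraries overlapping, while Rbpj lies between 25.1 and 30.8 CPM in every library.

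Among the ligands, Jag1 and Dll1 had higher means in Sgo1-/+ and Dll4 had nearly equal means, with none past the threshold. Jag1 (ENSMUSG00000027276), on chromosome 2 at 137081456 to 137116644, encodes a ligand of the Jagged family. It ran from 6.53 through 9.05 to 11.8 CPM in wild type and from 10.4 through 12.9 to 14.8 CPM in Sgo1-/+. In 4 wild type libraries it was below the lowest Sgo1-/+ library, and 4 Sgo1-/+ libraries were above the highest wild type library. For Jag1 the log2 change was 0.46 ± 0.17 (SE), with an edgeR adjusted p of 0.486, an unadjusted p of 0.0173 and an exact two-sided permutation p of 0.0195. Dll1 (ENSMUSG00000014773), a Delta ligand carried by secretory progenitors, lies on chromosome 17 at 15367354 to 15376872. It ran from 2.11 through 4.52 to 5.87 CPM in wild type and from 2.31 through 5.92 to 8.35 CPM in Sgo1-/+, on a mean of 43.5 counts. The lowest Sgo1-/+ value was again in replicate 3, near the lowest wild type value. Its log2 change was 0.58 ± 0.32 (SE; edgeR adjusted p = 0.570), and 0.95 without the 3 libraries rich in the abundant rows (unadjusted p = 0.00886).

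Dll4 (ENSMUSG00000027314), the Delta ligand that acts beside Dll1 in the crypt and is also made by endothelium, lies on chromosome 2 at 119325784 to 119335962. It ran from 2.98 through 3.81 to 4.62 CPM in wild type and from 1.15 through 4.33 to 6.14 CPM in Sgo1-/+. Both the lowest library, replicate 3, and the 3 highest were Sgo1-/+. For Dll4 the log2 change was 0.19 ± 0.30 (SE; edgeR adjusted p = 0.858), and it was 0.36 without Sgo1-/+ replicate 3 and 0.073 without Sgo1-/+ replicate 5. Leaving out wild type replicate 1 gave 0.12, and leaving out Sgo1-/+ replicate 6 gave 0.081. Without the 3 libraries rich in the abundant rows it was 0.35. Dll4, Dll1, Notch1 and Gfi1 share exon bases with genes on the opposite strand, and the sources used here do not give whether counting used strand. The opposite row at Dll4, Gm14207, held 21.7 to 50.9 counts per library beside 5.00 to 66.0 counts of Dll4. At Dll1 the opposite row, A930024N18Rik, held 1.90 to 22.7 counts beside 10.3 to 104 counts of Dll1, and in wild type replicate 2 and Sgo1-/+ replicate 3 it held more than Dll1 did. At Notch1, 0610009E02Rik held 6.80 to 48.2 counts and Gm13568 held 1.2 to 11.7 counts beside 22.6 to 264 counts. At Gfi1, A430072P03Rik held at most 2.0 counts in any library. Notch2 shares exon bases with a same-strand gene, Gm42820, that has no row here. The levels of Dll4 and Dll1, and to a lesser degree Notch1, are therefore uncertain, as are the differences and correlations computed from them.

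Rbpj was the steadiest of the 10 genes. Rbpj (ENSMUSG00000039191), the protein through which all Notch receptors reach DNA, is encoded on chromosome 5 at 53555779 to 53657445. It ran from 25.6 through 29.5 to 30.4 CPM in wild type and from 25.1 through 28.1 to 30.8 CPM in Sgo1-/+, with a coefficient of variation of 6.67% over the 12 libraries. The groups covered the same range. The log2 change was -0.044 ± 0.092 (SE; edgeR adjusted p = 0.892), and values without single libraries ran from -0.070 to 0.0023. Hes1, by contrast, had a coefficient of variation of 27.0% and Atoh1 of 37.3%.

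Hes1 had overlapping levels in the genotypes, while Hes6 had the smallest p-value of the 10 genes. Hes1 (ENSMUSG00000022528), the main target of Notch in the crypt, lies on chromosome 16 at 30064384 to 30067796. It ran from 54.6 through 57.4 to 77.9 CPM in wild type and from 49.3 through 62.7 to 112 CPM in Sgo1-/+. Its 4 highest libraries were Sgo1-/+ replicate 3 at 112 CPM, Sgo1-/+ replicate 2 at 80.4 CPM, and wild type replicates 5 and 3 at 77.9 and 75.9 CPM, so that all 3 libraries rich in the abundant rows were among them. The log2 change was 0.14 ± 0.19 (SE; edgeR adjusted p = 0.820). It turned to -0.037 without Sgo1-/+ replicate 3 and was 0.23, 0.22 and 0.24 without Sgo1-/+ replicates 1, 4 and 6.

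Hes6 (ENSMUSG00000067071), a relative of Hes1 that opposes it and marks cells leaving the progenitor state, lies on chromosome 1 at 91411483 to 91414038. It ran from 16.1 through 18.7 to 19.8 CPM in wild type and from 18.5 through 24.5 to 28.7 CPM in Sgo1-/+. In 5 of 6 Sgo1-/+ libraries it was above every wild type library, and the sixth, replicate 3, lay within the wild type range. The log2 change was 0.42 ± 0.13 (SE), or 1.33-fold, with an edgeR adjusted p of 0.443, an unadjusted p of 0.00524 and an exact two-sided permutation p of 0.00866. DESeq2 gave Hes6 an adjusted p of 0.173 and limma-voom 0.422. By unadjusted p it ranked 163 among 13889 genes.

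The secretory regulators Atoh1 and Gfi1 had higher means in Sgo1-/+ and did not pass the threshold. Atoh1 (ENSMUSG00000073043), on chromosome 6 at 64729146 to 64731233, ran from 20.9 through 41.6 to 44.9 CPM in wild type and from 23.6 through 46.6 to 76.7 CPM in Sgo1-/+. The 3 libraries rich in the abundant rows had the 3 lowest levels of all 12, at 20.9, 30.9 and 23.6 CPM, and Sgo1-/+ replicates 1, 6 and 5 had the highest, at 76.7, 64.6 and 53.3 CPM. The log2 change was 0.38 ± 0.27 (SE; edgeR adjusted p = 0.659), and 0.22 without Sgo1-/+ replicate 1. Gfi1 (ENSMUSG00000029275), a zinc finger repressor that acts after Atoh1 and holds back the endocrine programme, lies on chromosome 5 at 107716657 to 107726036. It ran from 3.61 through 5.00 to 6.63 CPM in wild type and from 3.92 through 7.70 to 11.9 CPM in Sgo1-/+. Replicates 6, 1 and 3 of Sgo1-/+ lay above every wild type library, at 11.9, 9.55 and 9.47 CPM, and the other 3 lay within the wild type range. The log2 change of Gfi1 was 0.58 ± 0.27 (SE; edgeR adjusted p = 0.519).

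**Figure D2:**
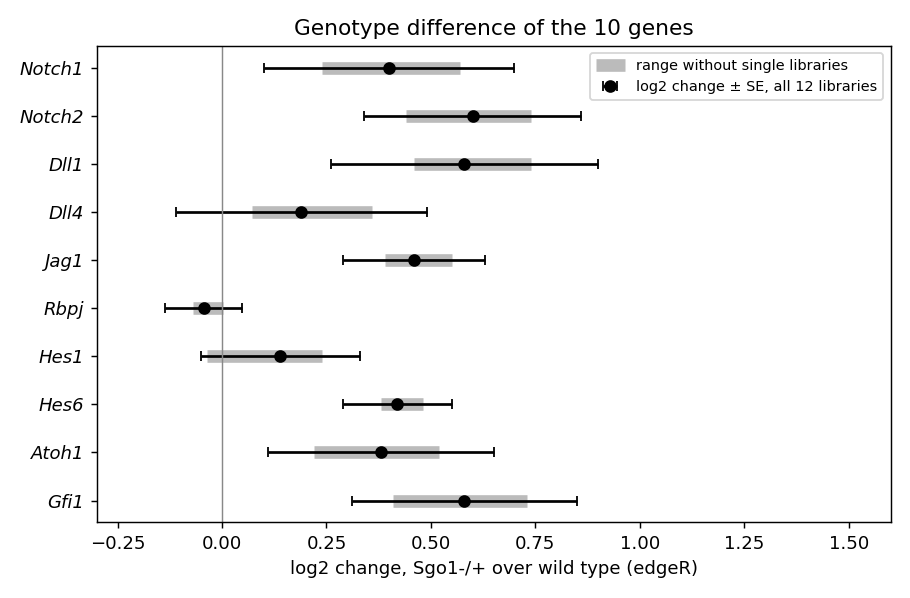
Log2 change of each gene between Sgo1-/+ and wild type in edgeR (points) with its standard error (black bars) and the range of values when single libraries are left out (grey). The value is above 0 for 9 of the 10 genes, and none passes an adjusted p of 0.05.

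Over all 10 genes, 0 passed an adjusted p of 0.05 in edgeR, as did 0.0% of 13889 genes tested. DESeq2 and limma-voom also called 0 of the 10, where DESeq2 called 0.216% of all genes and limma-voom 0.0%. All 10 passed the filter on low counts. In Sgo1-/+ the log2 change was above 0 for 9 of 10 genes, against 49.0% of all genes tested, and their median was 0.41 beside -0.0056 for all genes. Hes6, Jag1 and Notch2, 3 genes all higher in Sgo1-/+, had an unadjusted p under 0.05. Among all genes 4.56% met that p and were higher, and 5.08% met it and were lower. This count of 3, beside 9.65% of all genes, was 6 without Sgo1-/+ replicate 3, where 18.7% of all genes met that p, and 2 without the 3 libraries rich in the abundant rows, where 11.9% did. It was 4 among the 4 libraries with a suffix in their column names, where 14.2% of all genes met it, and 0 among the other 8, where 4.39% did. The 2 genes without the 3 libraries were Hes6 at 0.48 and Dll1 at 0.95 (log2 change, edgeR unadjusted p = 0.0023 and 0.00886). There Jag1 was at 0.36 and Notch2 at 0.43 (edgeR unadjusted p = 0.0743 and 0.151). No member had groups that did not overlap, while 0.223% of all genes had every Sgo1-/+ library above every wild type library.

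Summed levels of several marker lists also had higher or lower medians in Sgo1-/+. The 5 crypt base markers summed to 23.9 to 71.9 CPM in wild type and 41.1 to 104 CPM in Sgo1-/+, and all 5 had log2 changes above 0, with 0 past the threshold. The 6 proliferation markers summed to 143 to 302 CPM and 179 to 305 CPM, again all 6 above 0 and 0 past the threshold. The 4 distal colon markers, 1 of which also marks enteroendocrine cells, summed to 46.5 to 133 CPM in wild type and 51.4 to 329 CPM in Sgo1-/+, with 4 of 4 above 0 and 0 past the threshold. Only Sgo1-/+ replicates 2, 4 and 5 lay above the wild type range, at 329, 245 and 250 CPM. The 3 deep crypt secretory markers summed to 173 to 592 CPM and 258 to 736 CPM, all 3 above 0 and 0 past the threshold, and were highest in replicate 3 of each group, where Atoh1 was lowest. Absorptive colonocyte markers summed to 8430 to 15900 CPM and 7720 to 12900 CPM, with all 6 below 0 and 0 past the threshold. The 4 B and plasma cell markers in the files summed to 28.9 to 69.9 CPM and 17.2 to 40.8 CPM, with 4 of 4 below 0 and 0 past the threshold. Their part in the values of the 10 genes was not tested. A suffix stands in the column names of 4 libraries, replicates 1 and 6 of wild type and replicates 5 and 6 of Sgo1-/+. Among them the log2 changes of Notch1, Dll4 and Dll1 were 0.88, 0.94 and 0.95, and among the other 8 they were 0.073, -0.27 and 0.38. Hes6 was at 0.62 with the suffix and 0.31 without it, Jag1 at 0.49 and 0.45, and Notch2 at 0.35 and 0.72. Atoh1 was at 0.49 and 0.32, Gfi1 at 1.00 and 0.37, Hes1 at 0.12 and 0.16, and Rbpj at -0.090 and -0.014.

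The rest of the pathway had values on both sides of 0. Of 49 other Notch pathway genes 38 could be tested, 18 with a log2 change above 0 and 20 below, and 0 passed in edgeR. Their median was -0.0092, beside -0.0056 for all genes. At an unadjusted p under 0.05 there were 3 higher and 3 lower, or 15.8% of the 38 beside 9.65% of all genes tested. Notch4, a receptor best known from blood vessels, was named for the smallest p of the 38. It ran from 2.02 to 3.35 CPM in wild type and from 4.05 to 5.99 CPM in Sgo1-/+, so that the groups did not overlap. Of all genes tested 0.223% had groups apart in that direction. Its log2 change was 0.84 ± 0.20 (SE; edgeR adjusted p = 0.443, unadjusted p = 0.000794), on a mean of 32.9 counts, and DESeq2 gave an adjusted p of 0.124. The 6 endothelial markers, of which 3 could be tested (2 above 0 and 1 below), had a median sum of 9.75 CPM over wild type and of 11.6 CPM over Sgo1-/+ libraries, and their part in the values of Notch4 was not tested.

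Lfng, a fringe enzyme that adds sugar to Notch receptors and sets their choice of ligand, had a log2 change of 0.72 ± 0.23 (SE; edgeR adjusted p = 0.476). The wild type libraries averaged 3.70 ± 0.623 CPM and the Sgo1-/+ libraries 6.11 ± 1.98 CPM (SD, n = 6), and 5 Sgo1-/+ libraries lay above the highest wild type library. Dtx4, of the deltex family of ubiquitin ligases, was at 0.65 ± 0.30 (SE; edgeR adjusted p = 0.514). In the other direction, the Rbpj corepressor gene Cir1 was at -0.50 ± 0.17, Neurl3, of the neuralized family, at -0.28 ± 0.12, and Numb, which removes Notch from the cell surface, at -0.24 ± 0.11 (log2 change ± SE; edgeR adjusted p from 0.478 to 0.504). Cir1 was highest in wild type replicates 5 and 3, at 59.2 and 55.5 CPM, and it shares exon bases with opposite-strand genes. Its log2 change was -0.29 without the 3 libraries rich in the abundant rows and -0.14 with total counts only. Numb overlaps an opposite-strand gene that has no row here. The targets Hey1, Hey2, Heyl and Hes5 and the receptor gene Notch3 were too low to test. Nrarp, Hes2 and Hes7 could be tested and were at 0.33 ± 0.24, -0.17 ± 0.30 and -0.92 ± 0.43 (log2 change ± SE, edgeR adjusted p from 0.519 to 0.865).

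**Figure D3:**
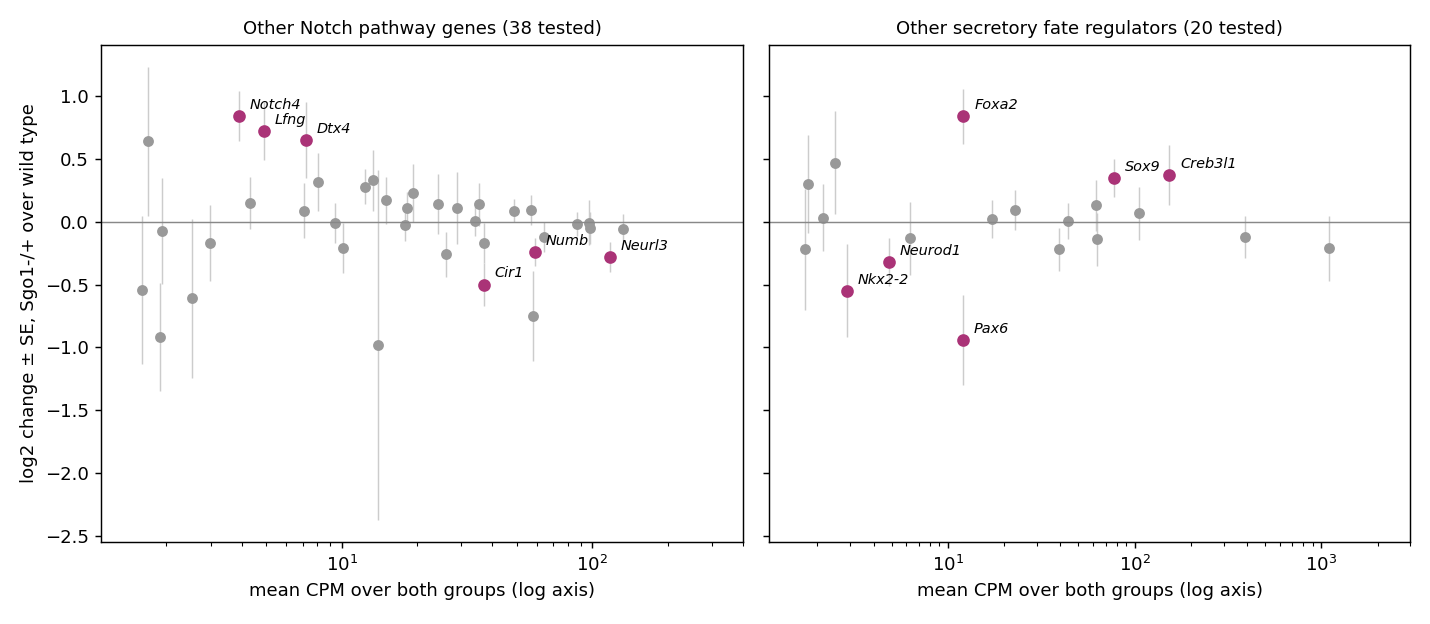
Log2 change ± SE of other Notch pathway genes (left) and other secretory fate regulators (right) against their mean CPM over both groups, on a log axis. Labelled genes have the smallest p in each direction at a mean of at least 10 counts, and values lie on both sides of 0 in both lists.

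Among 26 other regulators of secretory fate 20 could be tested, 11 with values above 0 and 9 below, with a median of 0.015 and 0 past the threshold in edgeR. Foxa2, a forkhead factor of goblet and endocrine cells, averaged 8.70 ± 2.62 CPM over wild type libraries against 15.5 ± 3.59 CPM over Sgo1-/+ libraries (SD, n = 6). Its log2 change was 0.84 ± 0.22 (SE; edgeR adjusted p = 0.443; DESeq2 adjusted p = 0.0734), and 5 Sgo1-/+ libraries were above the highest wild type library. Sox9, a factor of crypt base and progenitor cells, was at 0.35 ± 0.15 and Creb3l1, a goblet cell factor, at 0.37 ± 0.24 (log2 change ± SE; edgeR adjusted p = 0.504 and 0.640). Without wild type replicate 3 Creb3l1 was at 0.24. Among the others in the list, Spdef was at -0.14 ± 0.21, Klf4 at -0.21 ± 0.26 and Foxa1 at 0.13 ± 0.20 (log2 change ± SE, edgeR adjusted p from 0.799 to 0.841).

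On the lower side, the genes named by smallest p were Pax6, Neurod1 and Nkx2-2, each known as a factor of enteroendocrine cells, and of these only Pax6 had an unadjusted p under 0.05 (0.0203). Pax6 averaged 15.8 ± 9.09 CPM over wild type libraries against 8.24 ± 3.82 CPM over Sgo1-/+ libraries (SD, n = 6), a log2 change of -0.94 ± 0.36 (SE; edgeR adjusted p = 0.486). It was highest in the 3 libraries rich in the abundant rows, at 31.2, 22.4 and 15.7 CPM, and its log2 change was -0.58 without them. Nkx2-2 was at -0.55 ± 0.37 and Neurod1 at -0.32 ± 0.19 (log2 change ± SE; edgeR adjusted p = 0.645 and 0.589), and Nkx2-2 was at -0.27 without wild type replicate 3 and -0.23 without the 3 libraries. Nkx2-2as, on the opposite strand, overlaps Nkx2-2 and averaged 5.21 counts per library beside 20.3. Cerkl, on the same strand, overlaps Neurod1 and averaged 8.12 counts beside 37.9. Neurog3, Pax4, Isl1 and Rfx6 were among those too low to test. Enteroendocrine markers summed to 337 to 585 CPM in wild type and 237 to 568 CPM in Sgo1-/+, with 4 of 8 above 0 and 4 below. The 9 goblet markers had 8 values above 0 and 1 below, with 0 past the threshold.

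Whether the genes of the fate switch varied together from library to library was asked in 10 pairs of Atoh1, Gfi1, Dll1, Hes6 and Hes1, using log2 CPM over the 12 libraries. After adjustment over the 10 pairs 0 Pearson correlations passed 0.05 (Benjamini-Hochberg, two-sided permutation test), and at an unadjusted p under 0.05 there were 3. Dll1 and Hes6, both genes of secretory progenitors, had a Pearson r of 0.71 (permutation p = 0.00973, adjusted p = 0.077) and a Spearman rho of 0.77 (permutation p = 0.005, adjusted p = 0.05). The r was 0.71 without the 2 libraries farthest from the median of Dll1, 0.64 within wild type, 0.71 within Sgo1-/+ and 0.79 over the 9 libraries not rich in the abundant rows. Of all genes tested 0.418% had an r with Dll1 at least as high.

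Atoh1 and Hes1, the gene and its repressor, had an r of -0.68 (permutation p = 0.0154, adjusted p = 0.077) and a rho of -0.62 (permutation p = 0.0379, adjusted p = 0.126). It was -0.69 without the 2 libraries farthest from the median of Atoh1, -0.86 within wild type and -0.75 within Sgo1-/+. Over the 9 libraries not rich in the abundant rows it was -0.28, so the size of the relation rests on the other 3. Those 3 had the highest ratios of Hes1 to Atoh1 CPM, at 3.64 and 2.52 in wild type replicates 3 and 5 and 4.75 in Sgo1-/+ replicate 3, and the other 9 ran from 0.684 to 2.02. The part of the abundant rows in this relation was not tested. Of all genes tested 9.24% had an r with Atoh1 at least as negative.

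Atoh1 and Hes6 had an r of 0.61 (permutation p = 0.0369, adjusted p = 0.123) and a rho of 0.69 (permutation p = 0.0155, adjusted p = 0.0774), with an r of 0.53 without the 2 farthest libraries, 0.51 within wild type, 0.64 within Sgo1-/+ and 0.40 over the 9 libraries. Atoh1 and Gfi1 had an r of 0.38 (permutation p = 0.217, adjusted p = 0.42) and a rho of 0.54 (permutation p = 0.0743, adjusted p = 0.186). The r of Atoh1 and Gfi1 was 0.18 without the 2 farthest libraries, 0.17 within wild type, 0.32 within Sgo1-/+ and 0.85 over the 9 libraries. The other 6 pairs had r between -0.33 and 0.36, with adjusted p from 0.42 to 0.878. With the 3 libraries left out, a choice made after seeing the data, 2 of the 10 pairs passed the threshold. Among all pairs of the 10 genes, Notch1 and Dll4 had the highest r, at 0.83, and 0.71 over the 9 libraries.

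**Figure D4:**
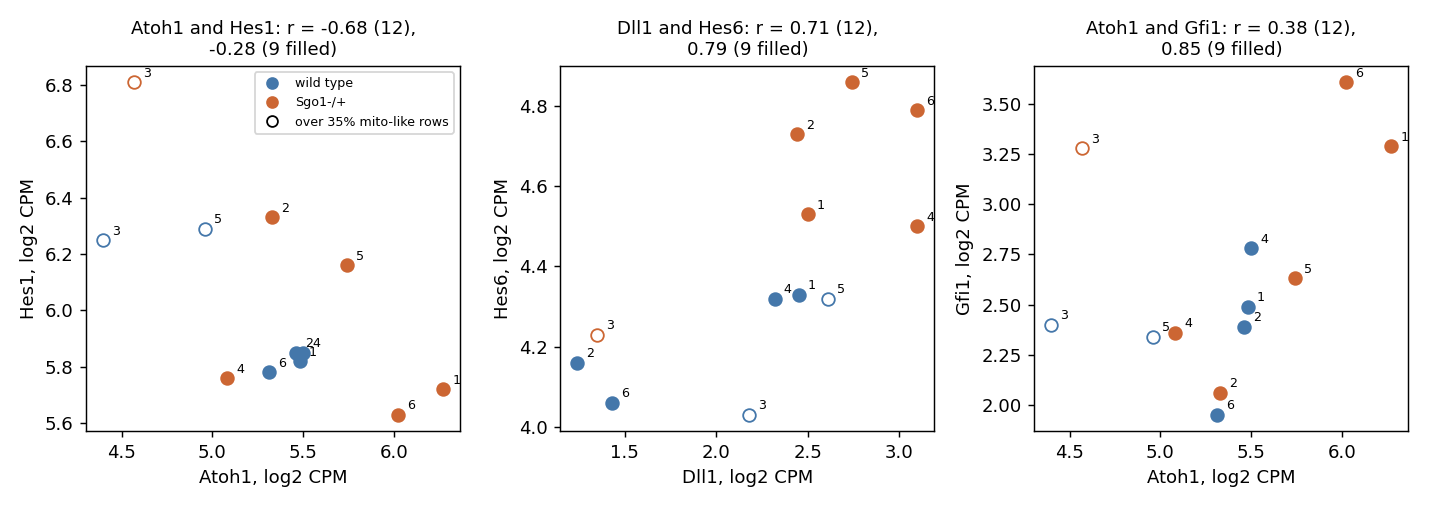
Log2 CPM of Atoh1 and Hes1, Dll1 and Hes6, and Atoh1 and Gfi1 in the 12 libraries, numbered by replicate, with wild type in blue, Sgo1-/+ in orange and the 3 libraries with over 35% of counts in the 4 abundant rows as open points. With the open points left out, r goes from -0.68 to -0.28 for Atoh1 and Hes1, from 0.71 to 0.79 for Dll1 and Hes6, and from 0.38 to 0.85 for Atoh1 and Gfi1.

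The genes most like Atoh1 over the 12 libraries, out of 13785 genes averaging 10 or more counts, were Nrp2 with an r of 0.96, Dvl3 and Gse1 with 0.94, Ifitm2 with 0.93 and B3gnt6 with 0.91. Nrp2 encodes a semaphorin and VEGF co-receptor, Dvl3 a dishevelled protein of Wnt signalling, and B3gnt6 an enzyme that builds the core of mucin sugars. Over the 9 libraries not rich in the abundant rows their r with Atoh1 was 0.96 for Nrp2, 0.89 for Dvl3, 0.88 for Gse1, 0.79 for Ifitm2 and 0.81 for B3gnt6. Most like Hes1 were Pbrm1 and Xrcc4 with an r of 0.94, G3bp1 with 0.93, and Apex2 and Cyp4x1 with 0.91. Over the 9 libraries these were 0.88 for Pbrm1, 0.85 for Xrcc4, 0.77 for G3bp1, 0.70 for Apex2 and 0.81 for Cyp4x1. The libraries differ in depth and composition, and how far these differences shape the r values was not tested. These r values are a description of the highest among many genes.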

How the data were processed

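Total RNA of colonic mucosa was enriched for mRNA, made into TruSeq V2 libraries and sequenced on a MiSeq, per the labels' protocols. The deposited tables, 1 per library, hold 38592 rows with an estimated count and a log2 value per gene, per the file headers. The authors' log2 column was not used for tests. DESeq and mm10 are named in the submitters' processing notes, while the sources used here do not give the aligner, counting tool or use of strand. Of counts above 0, 69.6% were not whole, and counts were rounded for the tests. The 505 rows without an Ensembl identifier, 1.79% to 5.4% of counts, stayed out of library sizes and tests.

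The 6 Sgo1-/+ and 6 wild type libraries were compared with edgeR 4.0.16 (R 4.3.3), using TMM scaling, quasi-likelihood tests without the legacy option, Benjamini-Hochberg adjustment and a filter by expression (counts of 10 per gene, 15 in total), leaving 13889 genes. DESeq2 1.42.0 and limma-voom (limma 3.58.1) were alternatives. CPM used TMM-scaled library sizes, and log2 CPM a prior count of 2. Exact permutation tests over samples used all 924 assignments of libraries to genotype, and correlations 100000 permutations. Totals of 5711553 to 10198304 counts limit precision for the lowest genes, and SEs cover the spread between libraries. TMM-scaled library sizes ran from 3750777 to 10441475 in wild type and from 4330128 to 12502814 in Sgo1-/+. Apart from wild type replicate 2 and Sgo1-/+ replicate 3, they were at most 6932958 in wild type and at least 9689141 in Sgo1-/+. Per kilobase levels used GENCODE M21 exons. The test was checked on simulated data, where it recovered 55% of 100 genes changed by a log2 of 1 and 97% of 100 changed by 2. Of 160 genes called there, 8 had not been changed. The simulation gave genes of like level the same spread and all libraries the same composition. It changed only genes averaging 10 or more counts. Recovery can therefore be lower for genes with a wider spread, such as Atoh1 and Gfi1. All log2 changes of the members were smaller than 1.

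The members, lists and motifs were chosen with earlier results of these data known. Named genes are the 10 members, the 3 genes of each other list with the smallest p in each direction at a mean of at least 10 counts, and the 5 genes most correlated with Atoh1 and with Hes1, predicted genes left out. No 2 libraries held identical values. Some members of the other lists are not reported here by name.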

Additional observations from a re-analysis of the deposited data

Results flagged for a closer look

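Single libraries stood away from the other 5 of their group in 4 of 44 groups of 6 checked, by a gap to the nearest library that was a large share of the group's range (Dixon's test at 95%, which chance passes in about 1 in 20 groups). Notch2 was at 6.40 CPM in Sgo1-/+ replicate 4, with the next library at 3.93 CPM. Lfng was at 2.51 CPM in wild type replicate 3, below the next at 3.73 CPM. Pax6 was at 15.7 CPM in Sgo1-/+ replicate 3, above the next at 7.84 CPM. Neurod1 was at 3.77 CPM in wild type replicate 3, below the next at 5.55 CPM. Of these libraries, wild type replicate 3 and Sgo1-/+ replicate 3 are among the 3 with over 35% of counts in 4 abundant rows.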

How the results depend on the processing

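DESeq2 called 30 genes over all genes and edgeR on the 4 libraries with the column suffix called 1, where edgeR on all 12 called 0, with 1340 at an unadjusted p under 0.05. None of the members was called under any alternative run. Of 260 alternative values of the members' log2 changes, 256 kept their direction and 4 reversed: Hes1 to -0.037 without Sgo1-/+ replicate 3, Dll4 to -0.27 in the libraries without the suffix, and Rbpj to 0.27 with total counts only and to 0.0023 without Sgo1-/+ replicate 5. Total counts only, which moved the median of all genes to 0.31 and the members' median to 0.74, put 83.7% of genes above 0 and also reversed Neurl3 to 0.053 and Numb to 0.084. Of 312 values of the named genes of the other 2 lists, 310 kept their direction, and no alternatives were run for the log2 changes of the genes named for their likeness to Atoh1 or Hes1. Without single libraries, Hes1 ran from -0.037 to 0.24 and Rbpj from -0.070 to 0.0023. The number of correlated pairs past the threshold, 0 of 10, became 5 with total counts only, 1 after centring within genotype and 2 without the 3 libraries rich in the abundant rows. The cause of these changes was not tested. Mean levels without the 4 abundant rows are higher by construction, as for Hes1 at 87.4 CPM in wild type. Low counts limit Notch2, Dll4 and Dll1 most.

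With the replicate number as a block, edgeR called 0 genes and 0 members, with 1706 genes at an unadjusted p under 0.05. Deviations of same-numbered libraries correlated at -0.298 to 0.454, and only replicate 3 correlated best with its own number, so the numbers were not treated as pairing.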
